A study of Mus musculus with 16 samples.

Results

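Testes of mice carrying a Musashi-2 transgene (TgMsi2) were compared directly with testes of mice carrying a Musashi-1 transgene (TgMsi1). Arrays were chosen by their sample titles, which gave TgMsi2 replicates 1 to 4 and TgMsi1 replicates 1 to 4, so 8 of the 16 arrays of the series. The other 8 arrays hold the wild-type littermates, 4 for the Musashi-1 line (Wt(TgMsi1)) and 4 for the Musashi-2 line (Wt(TgMsi2)). All mice were B6xCBA and 3 months old, and total RNA of whole testis was hybridised to Illumina mouse bead arrays. The transgenes are described as testis-specific overexpression. The promoter, the cells it is active in and the number of founder lines are not given in the labels. The labels place each transgene and its littermates in a comparison of their own, so a direct difference between the transgenic groups also holds whatever else differed between the lines. For this reason the leading differences are set beside the difference of the wild types, Wt(TgMsi2) minus Wt(TgMsi1), which shares no array with them. Whether the 4 replicates of a group came from different mice is not stated, so the spread behind each p-value is that between arrays and may be technical.

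Musashi-1 and Musashi-2 are closely related RNA-binding proteins. Each binds short UAG-containing motifs, mostly in the 3' untranslated region of messenger RNAs, and raises or lowers their translation or stability. In mouse testis Musashi-1 is known mainly from early germ cells and Sertoli cells, and Musashi-2 from meiotic and post-meiotic germ cells. Whole testis also holds Leydig, peritubular myoid, endothelial and immune cells, and in such bulk RNA fewer cells of a type and less RNA per cell cannot be told apart.

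Values are the deposited log2 signals of 25697 probes, from 7.37 to 14.51, with a median of 7.83 on each array. Bead arrays count no reads, and precision is limited by having 4 arrays in a group. Arrays of a group correlated across probes with r from 0.988 to 0.996, and 0 pairs of arrays were identical. On the first principal component of the 8 transgenic arrays (51.3% of their variance) TgMsi2 replicates 1 and 3 lay at 26.76 and 22.05, and TgMsi2 replicates 2 and 4 at 3.61 and -0.15. TgMsi1 replicate 2, at -1.09, lay nearer to these than to TgMsi1 replicates 1, 3 and 4, at -14.97, -16.92 and -19.29. The spread inside each transgenic group was therefore large against the gap between the groups. Among the wild types, the array labelled Wt(TgMsi1) replicate 2 went against its label in some probes. Of the 14 probes in both of the authors' deposited transgene tables, its value was nearer to the TgMsi1 arrays than to the other Wt(TgMsi1) arrays in 9, against 0, 1 and 0 for replicates 1, 3 and 4. Of the 246 probes of the TgMsi1 table it was nearer to the TgMsi1 arrays in 76, against 26, 39 and 11 for replicates 1, 3 and 4, so in most of them it lay with its own group. That array does not enter the means of the transgenic groups, but it enters each wild-type value below. Probes for Msi1 and Msi2 carry no name in the deposited tables, so the transgenes were not checked by their own transcripts. Testis-defining transcripts were bright on all arrays: the sperm glycolytic gene Gapdhs lay between 13.35 and 14.09 and the Sertoli gene Aard between 13.25 and 14.47.

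TgMsi2 testes differed from TgMsi1 testes in 823 of 25697 probes (3.2%) in limma at an adjusted p under 0.05. Of these, 492 were higher in TgMsi2 (1.91%) and 331 lower (1.29%). The wild types of the same lines differed in 11 probes (0.0428%), 10 higher (0.0389%) and 1 lower (0.00389%) in the Musashi-2 line. The unadjusted p was under 0.05 for 4520 probes between the transgenic groups and for 1944 between the wild types. The difference of the differences, which tests whether the transgenic gap differs from the wild-type gap, passed in 2 probes (0.00778%), with 2821 at an unadjusted p under 0.05. This contrast is less precise, with a median SE of 0.129 in the 823 called probes against 0.092 for the transgenic difference, so the counts are not alike in power. With a fold above 1.5 required as well, 129 probes were higher and 86 lower in TgMsi2, and 5 probes differed between the wild types. The 4 TgMsi2 arrays lay entirely to 1 side of the 4 TgMsi1 arrays in 725 of the 823 called probes, and in 9.22% of all probes, while the wild-type groups did not overlap in 4.21% of all probes.

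The called set depended on which arrays were kept. Only 118 of the 823 probes (14.3%) were called in all 16 limma fits that left out 1 array, 71 of them higher and 47 lower. The number of called probes was 140 without TgMsi2 replicate 1, 178 without TgMsi2 replicate 3, 165 without TgMsi1 replicate 4, 225 without TgMsi1 replicate 3 and 297 without TgMsi1 replicate 1. It was 1414 without TgMsi1 replicate 2 and 1527 without TgMsi2 replicate 4. Without TgMsi2 replicates 1 and 3 together limma called 24 probes, 22 of them among the 823, and with TgMsi1 replicate 2 left out as well it called 141, of which 114 were among the 823. A fit of the 8 transgenic arrays alone called 157 probes, 65 higher and 92 lower. The SEs and p-values given for each gene pool the spread of all 16 arrays, unless arrays are said to be left out. Where the wild types vary less than the transgenic groups, they understate the transgenic spread. Both fits without TgMsi2 replicates 1 and 3 were added after seeing the data.

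Gene names exist for 932 probes (840 genes), all from the authors' deposited tables of each transgene against its own wild type. A probe is therefore named only if it changed with a transgene on these same arrays. Of the named probes 215 (23.1%) were called, 141 higher (15.1%) and 74 lower (7.94%), and these shares are raised by that selection. The called named probes stand for 196 genes, and 608 called probes have no name. Of the 79 genes read by more than 1 named probe, 23 had a called probe. In these 23 all named probes had the same sign, and in 16 all were called. A probe that did not change would have no name, so this likeness is largely fixed by the naming.

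Among named genes whose probe was called and whose groups do not overlap, those with the largest higher signal in TgMsi2, of which 11 are described here, were led by Timp1, Lrg1 and Robo4. Timp1, an inhibitor of matrix metalloproteinases, had log2 signals of 8.20, 8.99, 8.01 and 7.88 in TgMsi1 and of 10.20, 9.77, 11.25 and 9.38 in TgMsi2. It was higher in TgMsi2 by 1.88 (SE 0.31, a 3.69-fold difference, limma adjusted p = 0.00974). The Timp1 SD was 0.50 in TgMsi1 and 0.81 in TgMsi2, against 0.14 in Wt(TgMsi1) and 0.07 in Wt(TgMsi2). The SE pools all 4 groups, so it understates the transgenic spread. The wild types differed in Timp1 by 0.06, with a 95% interval from -0.61 to 0.74. Robo4, a guidance receptor of vascular endothelium, stood at 8.17, 9.35, 7.96 and 8.0 in TgMsi1 and at 10.52, 9.88, 10.60 and 9.81 in TgMsi2. TgMsi1 replicate 2 was the highest TgMsi1 array in both genes, and TgMsi2 replicates 2 and 4 were the lowest TgMsi2 arrays. The Robo4 difference was 1.83 (SE 0.26, 3.57-fold, limma adjusted p = 0.0043) against 0.13 in the wild types. Lrg1, a secreted leucine-rich glycoprotein of the acute phase, stood at 9.03, 8.64, 8.62 and 8.35 in TgMsi1 and at 10.41, 9.71, 11.996 and 10.02 in TgMsi2. Its difference of 1.88 (SE 0.42, limma adjusted p = 0.0314) had the widest error of the 11 genes, with TgMsi2 replicate 3 far above the rest, and the wild types differed by -0.38. The call of Lrg1 was lost without TgMsi1 replicate 1, 3 or 4 or TgMsi2 replicate 1 or 3.

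Tnfrsf12a, the receptor of the cytokine TWEAK, had log2 signals of 7.96, 8.34, 7.79 and 7.77 in TgMsi1 and of 9.36, 9.01, 9.82 and 8.90 in TgMsi2. It was higher in TgMsi2 by 1.31 (SE 0.16, 2.47-fold, limma adjusted p = 0.00396), and the wild types differed by 0.04 (95% interval -0.31 to 0.39). Ddr1, a receptor tyrosine kinase that binds collagen, stood at 9.03, 9.34, 8.80 and 8.85 in TgMsi1 and at 9.96, 9.83, 10.51 and 10.01 in TgMsi2. All 4 TgMsi2 arrays lay above the highest TgMsi1 array in both receptors. The Ddr1 difference was 1.07 (SE 0.14, limma adjusted p = 0.00396), against -0.02 in the wild types. Both receptors also kept their calls when TgMsi2 replicates 1 and 3 were left out together, with differences of 0.99 for Tnfrsf12a (limma adjusted p = 0.0218) and 0.92 for Ddr1 (limma adjusted p = 0.0326).

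Of the other named genes with higher signal, the transcription cofactor Lbh differed by 1.47 (SE 0.25), the matricellular protein Sparc by 1.10 (SE 0.17), the Arp2/3 complex subunit Arpc1b by 1.09 (SE 0.15) and the sphingolipid regulator Ormdl3 by 1.01 (SE 0.16). These 4 genes, together with Timp1, Robo4, Tnfrsf12a and Ddr1, were called in all 16 fits with 1 array left out, and their wild-type differences lay between -0.02 and 0.19. Without TgMsi2 replicates 1 and 3 together, only Tnfrsf12a and Ddr1 of these kept their calls. The limma adjusted p was then 0.0705 in Timp1, 0.0962 in Robo4, 0.138 in Lbh and 0.133 in Sparc. In Arpc1b it was 0.0587 and in Ormdl3 0.0944. The protease inhibitor Serpina3n (1.35) and Cd74, the invariant chain of antigen presentation (1.13), were called in 11 and 12 of the 16 fits, with wild-type differences of 0.04 and -0.02. Cd74 differed from the others in its pattern over arrays. Its log2 signals in TgMsi2 were 9.02, 10.05, 9.20 and 9.55, so replicates 2 and 4 were the highest, whereas in TgMsi1 they were 8.37, 8.49, 8.58 and 7.88. Serpina3n belongs to a cluster of similar genes whose transcripts a probe can share, so its identity is uncertain.

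**Figure D1:**
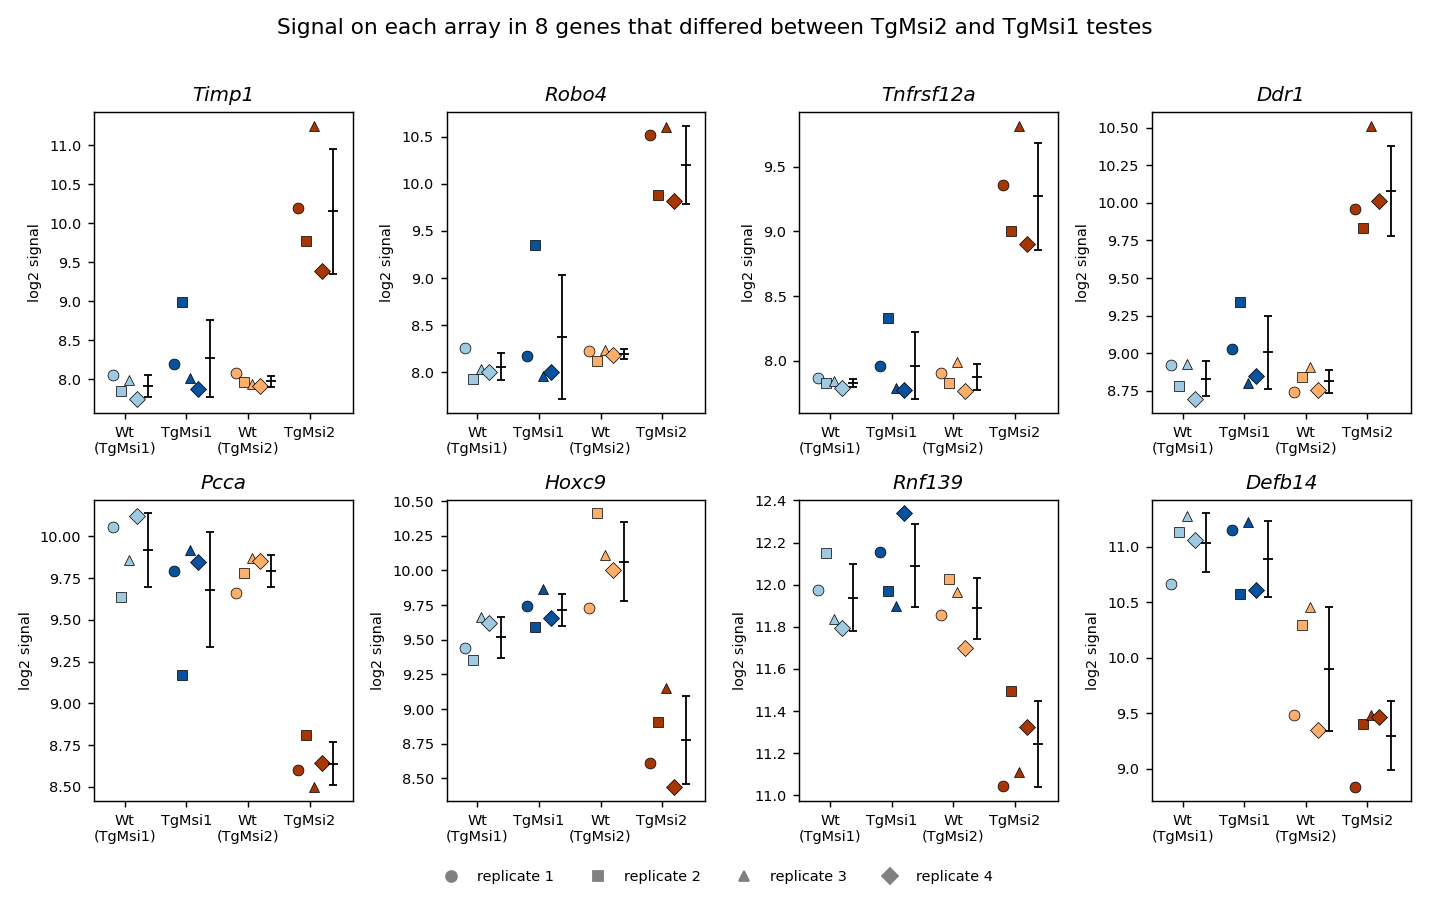
Log2 signal on each array (vertical axis) in the 4 groups (horizontal axis) for 8 genes that differed between TgMsi2 and TgMsi1. Symbols mark the replicate number, and the bars show mean and SD of 4 arrays. In Timp1, Robo4, Tnfrsf12a and Ddr1 all TgMsi2 arrays lie above the other 3 groups, with TgMsi1 replicate 2 the highest of the TgMsi1 arrays. In Pcca, Hoxc9 and Rnf139 all TgMsi2 arrays lie below the other groups, and in Defb14 the Wt(TgMsi2) arrays are low too.

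The 12 named genes with the largest lower signal in TgMsi2, again among called probes whose groups do not overlap, were led by Defb14, Pcca and Hoxc9. Some called genes had values as large but overlapping groups, among them the X-linked Cldn34c1 and Ube2dnl1 given below. Pcca, the alpha subunit of mitochondrial propionyl-CoA carboxylase, had log2 signals of 9.79, 9.17, 9.92 and 9.85 in TgMsi1 and of 8.60, 8.81, 8.50 and 8.64 in TgMsi2. It was lower in TgMsi2 by 1.04 (value -1.04, SE 0.14, limma adjusted p = 0.00396), and the wild types differed by -0.13 (95% interval -0.44 to 0.18). Rnf139, a ubiquitin ligase of the endoplasmic reticulum, stood at 12.15, 11.97, 11.90 and 12.34 in TgMsi1 and at 11.04, 11.49, 11.11 and 11.32 in TgMsi2. Here too the groups do not overlap, and the difference was -0.85 (SE 0.12, limma adjusted p = 0.00396) against -0.05 in the wild types. The centrosomal protein gene Cep170 differed by -0.71 (SE 0.10, limma adjusted p = 0.0043), with -0.09 in the wild types. Pcca, Rnf139 and Cep170 were called in all 16 fits with 1 array left out. Their calls were lost without TgMsi2 replicates 1 and 3 together (limma adjusted p 0.0944, 0.0944 and 0.0705).

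The IgM receptor Fcmr (-0.92), the carotene-cleaving enzyme Bco1 (-0.88), the tripartite-motif gene Trim42 (-0.78) and the intracellular aquaporin Aqp11 (-0.75) were called in 11 of 16 fits. Zcchc13, an X-linked zinc finger gene (-0.86), and the germ cell zinc finger gene Zscan21 (-0.75) were called in 12, and the coenzyme Q-binding gene Coq10b (-0.71) in 14. The wild-type difference was 0.37 in Fcmr (95% interval -0.04 to 0.78), opposite to the transgenic one, and lay between -0.18 and 0.19 in the other 6 genes. TgMsi1 replicate 2 was the lowest TgMsi1 array in all 7 of these genes. In Fcmr it had 8.80 against 9.63 to 9.82 in the other TgMsi1 arrays, and in Bco1 9.32 against 9.47 to 10.24.

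Named probes of a gene gave like differences where they read different stretches. A second probe has a name only if it also changed with a transgene, so this likeness is largely fixed by the naming. The first 30 bases of the probes are shown for genes whose call rests on more than 1 probe, to show which pairs are separate measurements. Capitals mark the longest run, of at least 8 bases, that both stretches of a gene share. The sequences are those deposited by the authors and are given as printed there, 5′ to 3′.
Timp1 ILMN_2769918: CTACCAGAGCCGTCACTTTGCTtgcctgcc
Timp1 ILMN_3103896: tctgaggaCTACCAGAGCCGTCACTTTGCT
Pcca ILMN_2674924: gttacatgatgaagatcatactgtcgtggc
Pcca ILMN_2921698: tgcgcaagcatttacaggagcactcctgtg
Sparc ILMN_3059326: TCCCAGCAtcatgagggcctggatcttctt
Sparc ILMN_3136561: acatgacagacTCCCAGCAgcccgggacct
Zcchc13 ILMN_1213002: cgctgtggtgaaactggtcactacgccaag
Zcchc13 ILMN_2902833: gggaatgccccattgaggctaccgcttagt

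The 2 Timp1 probes share 42 of their 50 bases, so their differences of 1.88 and 1.83 are readings of nearly the same site. The Pcca probes share no run over 5 bases and the Zcchc13 probes none over 6, and the Sparc probes share 8. The separate probes differed by -1.04 and -0.91 in Pcca, by 1.10 and 0.98 in Sparc and by -0.86 and -0.78 in Zcchc13, all called in limma (adjusted p from 0.00396 to 0.0328). Both probes of each of these genes were read on the same 8 arrays, so they are no check of the samples. A probe that did not change would carry no name, so they check the probe only in part. Where the deposited tables give a position, the Timp1 probe ILMN_3103896 lies at X:20451675-20451724, the Pcca probe ILMN_2921698 at chromosome 14:123288864-123288913 and the Sparc probe ILMN_3136561 at chromosome 11:55238389-55238438. The genome build of these positions, and whether they fall in coding or untranslated exons, are both unstated.

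Set beside the wild types, the 823 called probes had a smaller median wild-type than transgenic difference. They were called on the transgenic difference, so this gap is largely fixed by the choice. The difference of the differences passed in 2 of them. Over the 823 called probes the median size of the transgenic difference was 0.431, and the median wild-type difference, counted in the same direction, was 0.048. The wild-type difference was at least 0.5 times the transgenic one in 112 probes (13.6%). It had the same sign in 566 (68.8%), against 53.3% of all probes. Across all probes the 2 differences, which share no array, correlated with r = 0.263, and their SDs were 0.172 for the transgenic and 0.105 for the wild-type difference. Probes are not independent replicates, and this correlation describes these arrays.

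**Figure D2:**
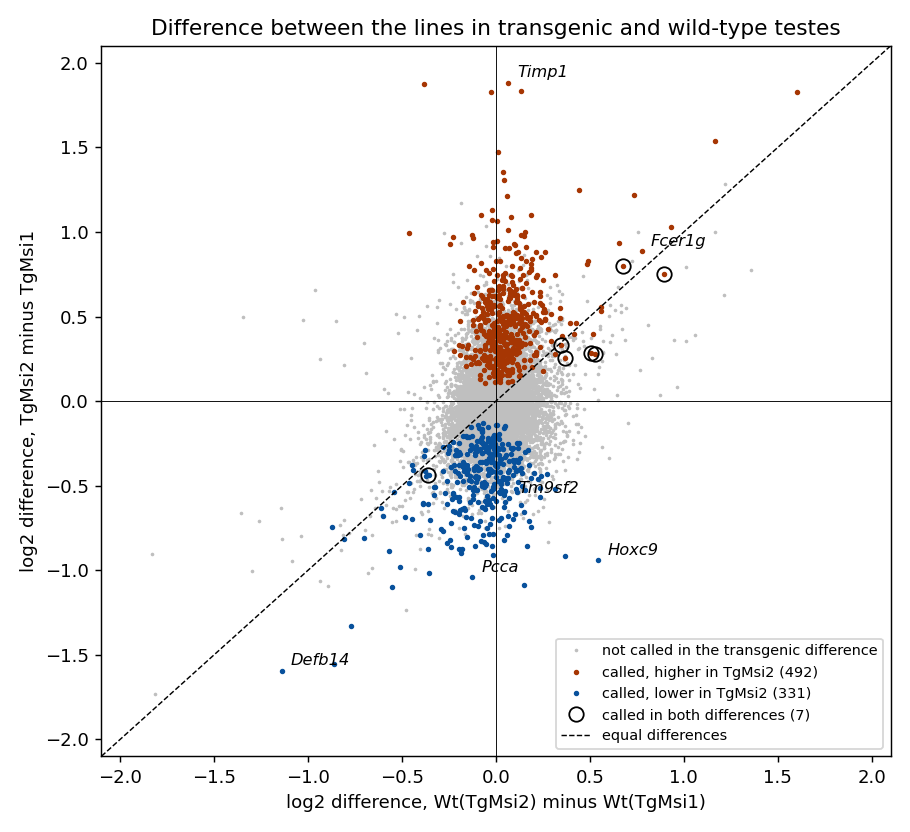
Each point is 1 of 25697 probes. The vertical axis is the log2 difference TgMsi2 minus TgMsi1, and the horizontal axis the log2 difference Wt(TgMsi2) minus Wt(TgMsi1). Most called probes (492 higher, 331 lower) lie near 0 on the wild-type axis. The 7 circled probes were called in both differences, and Defb14 and Fcer1g lie near the dashed line of equal differences.

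In 7 probes both differences were called, in the same direction, and 0 of them have a name. Probe ILMN_1234519 differed by 0.80 between the transgenic groups and by 0.68 between the wild types, and ILMN_1235331 by 0.75 and 0.89. Their signal lay near 7.7 in TgMsi1 (7.68 ± 0.07, SD, n = 4) and Wt(TgMsi1) (7.69 ± 0.09, SD, n = 4) for ILMN_1234519, and at 8.48 ± 0.24 in TgMsi2 and 8.37 ± 0.19 in Wt(TgMsi2). Both groups of the Musashi-2 line were thus higher than both groups of the Musashi-1 line. At an unadjusted p under 0.05 in the wild types, 128 of the 823 probes differed in the same direction there and 21 in the opposite one.

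Defb14, a beta-defensin gene, had the largest lower value of all named genes and a like gap in the wild types. Its log2 signals were 11.15, 10.58, 11.22 and 10.61 in TgMsi1 and 8.83, 9.40, 9.48 and 9.47 in TgMsi2, a difference of -1.60 (SE 0.25, limma adjusted p = 0.00732). In the wild types they were 10.66, 11.14, 11.28 and 11.07 for the Musashi-1 line and 9.49, 10.30, 10.46 and 9.35 for the Musashi-2 line. Those groups do not overlap either, and the wild-type difference was -1.14 (95% interval -1.68 to -0.60), although its adjusted p of 0.154 in limma did not pass. The difference of the differences was -0.46 (limma adjusted p = 0.707). Fcer1g, the common gamma chain of Fc receptors in myeloid cells, was higher in TgMsi2 by 0.89 (SE 0.16, limma adjusted p = 0.0134) and in the wild types by 0.78 (95% interval 0.43 to 1.12, limma adjusted p = 0.12). For both genes the wild-type interval covers the transgenic value. Of the 2 named probes called in the wild types alone, Sfrs16 differed there by 1.01 and between the transgenic groups by 0.35 (limma adjusted p = 0.18), and Cox20 by 0.39 and -0.04 (limma adjusted p = 0.772). Both names were taken after their values were seen.

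Tm9sf2, a membrane protein of endosomes and the Golgi, was the only named gene called in the difference of the differences. Its log2 signals were 8.82, 8.81, 8.69 and 8.80 in TgMsi1 and 8.30, 8.13, 8.13 and 8.27 in TgMsi2. In Wt(TgMsi1) they were 8.86, 8.64, 8.65 and 8.83, and in Wt(TgMsi2) 8.72, 8.86, 8.82 and 8.86. The TgMsi2 group lay below all 12 other arrays. The transgenic difference was -0.57 (SE 0.06, limma adjusted p = 0.00106), the wild-type difference 0.07, and the difference of the differences -0.64 (limma adjusted p = 0.0426). The other called probe, ILMN_1377919, has no name and had a difference of the differences of 0.44 (limma adjusted p = 0.0426). Both of these calls were lost without TgMsi1 replicate 1 or 4 or Wt(TgMsi2) replicate 2, 3 or 4, where 0 probes passed. The Tm9sf2 probe, ILMN_2802611 (ctgtggatacacactttctgtttccactta, the first 30 bases), lies at chromosome 14:122558647-122558696 in the deposited table.

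Other genes led the difference of the differences without passing. Hoxc9, a homeobox transcription factor, had log2 signals of 9.74, 9.59, 9.87 and 9.66 in TgMsi1 and of 8.61, 8.90, 9.15 and 8.44 in TgMsi2, a difference of -0.94 (SE 0.15, limma adjusted p = 0.00819). The wild types ran the opposite way, by 0.55 (95% interval 0.22 to 0.87), so the difference of the differences was -1.49 (limma adjusted p = 0.059). Slc30a1, the zinc exporter of the plasma membrane, did likewise, with -0.52 (limma adjusted p = 0.0151), 0.31 and -0.84 (limma adjusted p = 0.0726). Among genes with higher signal in TgMsi2, Laptm5, a lysosomal membrane protein of blood cells, had a transgenic difference of 0.93 and a difference of the differences of 1.17 (limma adjusted p = 0.0726). The secreted protease Htra1 had 0.59 and 0.65 (limma adjusted p = 0.0726 for the second value). Pcyt1a, which controls phosphatidylcholine synthesis, had 0.43 and 0.44, and the adaptor gene Trip6 had 0.56 and 0.58 (limma adjusted p = 0.136 for the second value of each). Laptm5, Htra1, Pcyt1a, Trip6 and the ubiquitin-conjugating enzyme gene Ube2k (-0.65) were called between the transgenic groups in all 16 fits with 1 array left out. Htra1, Pcyt1a, Hoxc9 and Tm9sf2 also kept their calls without TgMsi2 replicates 1 and 3. The kinase gene Uhmk1 (-0.18) did not pass between the transgenic groups (limma adjusted p = 0.211), and its wild types differed by 0.43.

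**Figure D3:**
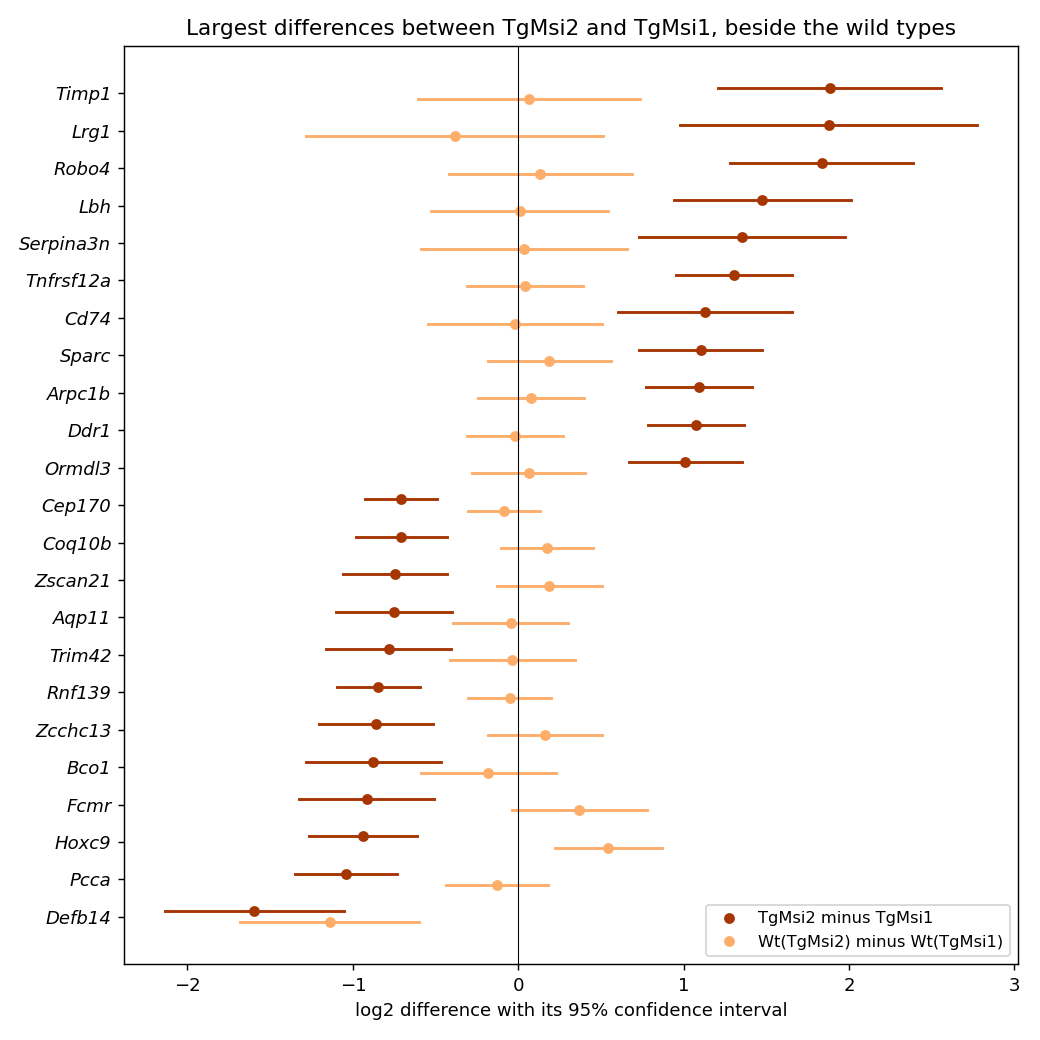
Log2 difference TgMsi2 minus TgMsi1 (dark) and Wt(TgMsi2) minus Wt(TgMsi1) (light) for 11 genes with the largest higher and 12 with the largest lower values, each with its 95% confidence interval from limma. In Defb14 the wild-type interval covers the transgenic value, and in the other 22 genes it does not reach it. The genes were picked for a large transgenic difference, so this is largely fixed by the choice. The difference of the differences was not called in any gene of the figure. The Hoxc9 wild-type interval (0.22 to 0.87) lies on the opposite side of 0.

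The direct difference equals the TgMsi2 effect minus the TgMsi1 effect plus the wild-type difference, where an effect is a transgenic group minus its own littermates. These quantities share arrays and are given side by side only. Since 700 probes are named from the TgMsi2 table and 246 from the TgMsi1 table, which of the effects is larger over the named probes is largely fixed by the naming. A few genes had the larger part on the TgMsi1 side. Ambp, the precursor of the protease inhibitor bikunin, had log2 signals of 8.78, 8.72, 8.71 and 8.58 in TgMsi1, above all 12 other arrays, and of 8.06, 8.26, 7.99 and 8.28 in TgMsi2. It was lower in TgMsi2 by 0.55 (value -0.55, SE 0.07, limma adjusted p = 0.00396), with a TgMsi1 effect of 0.43 and a TgMsi2 effect of 0.11, and it was called in all 16 fits. The wild types differed by -0.23 in the same direction (95% interval -0.38 to -0.07). Ybx3, a cold-shock protein that binds and stores germ cell messenger RNA, stood at 9.80, 9.98, 9.88 and 9.69 in TgMsi1 and at 9.24, 9.47, 9.19 and 9.37 in TgMsi2. Its groups do not overlap, and its difference of -0.52 (SE 0.10, limma adjusted p = 0.0178) came with a TgMsi1 effect of 0.36 and a TgMsi2 effect of -0.19, neither of them called (limma adjusted p 0.334 and 0.268). The wild types differed by 0.03, and Ybx3 was called in 13 of 16 fits. Over all probes the TgMsi1 effect was called in 0.0117% and the TgMsi2 effect in 11.5%.

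The X-linked testis gene Ott, singled out after its values were seen, was of the same kind. Its 2 probes were lower in TgMsi2 by 0.69 and 0.60 (values -0.69 and -0.60, limma adjusted p 0.0237 and 0.0398), with TgMsi1 effects of 0.74 and 0.49, TgMsi2 effects of 0.07 and -0.16 and wild-type differences of -0.02 and 0.05. Of the named probes with lower values 10 of 74 (13.5%) lie on the X chromosome, as do 15 of 141 (10.6%) with higher values and 54 of all 932 named probes (5.79%). Besides Ott and Zcchc13, the X-linked genes with lower values were Cldn34c1 (-1.55), Ube2dnl1 (-1.02), Samt3 (-0.88 and -0.86 at 2 probes), Gm4985 (-0.59) and Gm15107 (-0.56), also named after their values were seen. In Cldn34c1 the wild types differed by -0.86 and in Ube2dnl1 by -0.36, in the same direction, and in the other 3 genes by -0.20 to -0.06. The shares are a description of named probes, and several of these genes belong to X-linked families of similar copies that a probe may not tell apart.

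Several genes had no called direct difference, among them Tbx1, Tnfrsf10b and Pabpc2, whose probes stand in both of the authors' deposited transgene tables. Tbx1, a T-box transcription factor and a reported Musashi-2 target in testis, had log2 signals of 9.59, 9.62, 9.72 and 9.66 in TgMsi1 and of 9.26, 9.40, 9.34 and 9.99 in TgMsi2. The groups overlap, and the difference was -0.15 (SE 0.21, limma adjusted p = 0.799), beside effects of 0.79 for TgMsi1 and 0.81 for TgMsi2. Ppa2, the mitochondrial pyrophosphatase, had the narrowest spread, with 11.04, 11.13, 11.05 and 11.07 in TgMsi1 and 11.02, 11.06, 10.96 and 10.97 in TgMsi2. Its difference was -0.07 (SE 0.07, limma adjusted p = 0.695). The pore-forming cell death gene Gsdmd (0.21), the death receptor Tnfrsf10b (-0.15), the spermatid gene Prm3 (-0.15), Gapdhs (0.05) and Pabpc2, a testis poly(A)-binding protein (-0.24), also missed the threshold (limma adjusted p 0.119 to 0.84). For Adipoq, the fat cell hormone adiponectin, the TgMsi1 arrays read 9.79, 8.49, 9.59 and 9.25 and the TgMsi2 arrays 8.63, 8.94, 8.78 and 9.15, a difference of -0.41 (SE 0.32, limma adjusted p = 0.593). A p that misses the threshold does not show that the groups were alike: the 95% interval of the direct difference ran from -0.60 to 0.30 in Tbx1, from -1.10 to 0.29 in Adipoq and from -0.21 to 0.08 in Ppa2.

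In Tbx1, Gsdmd and Adipoq the array labelled Wt(TgMsi1) replicate 2 read like a transgenic array. It had 9.62 for Tbx1, against 8.50 to 8.79 in the other Wt(TgMsi1) arrays, 10.18 for Gsdmd, against 8.99 to 9.30, and 9.31 for Adipoq, against 10.53 to 10.88. The TgMsi1 effects above include it. Of the 14 probes in both deposited tables only Fcer1g was called in the direct difference. The other 13 had direct differences between -0.54 (Nckap1l, named after its value was seen) and 0.10 (another Gsdmd probe).

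**Figure D4:**
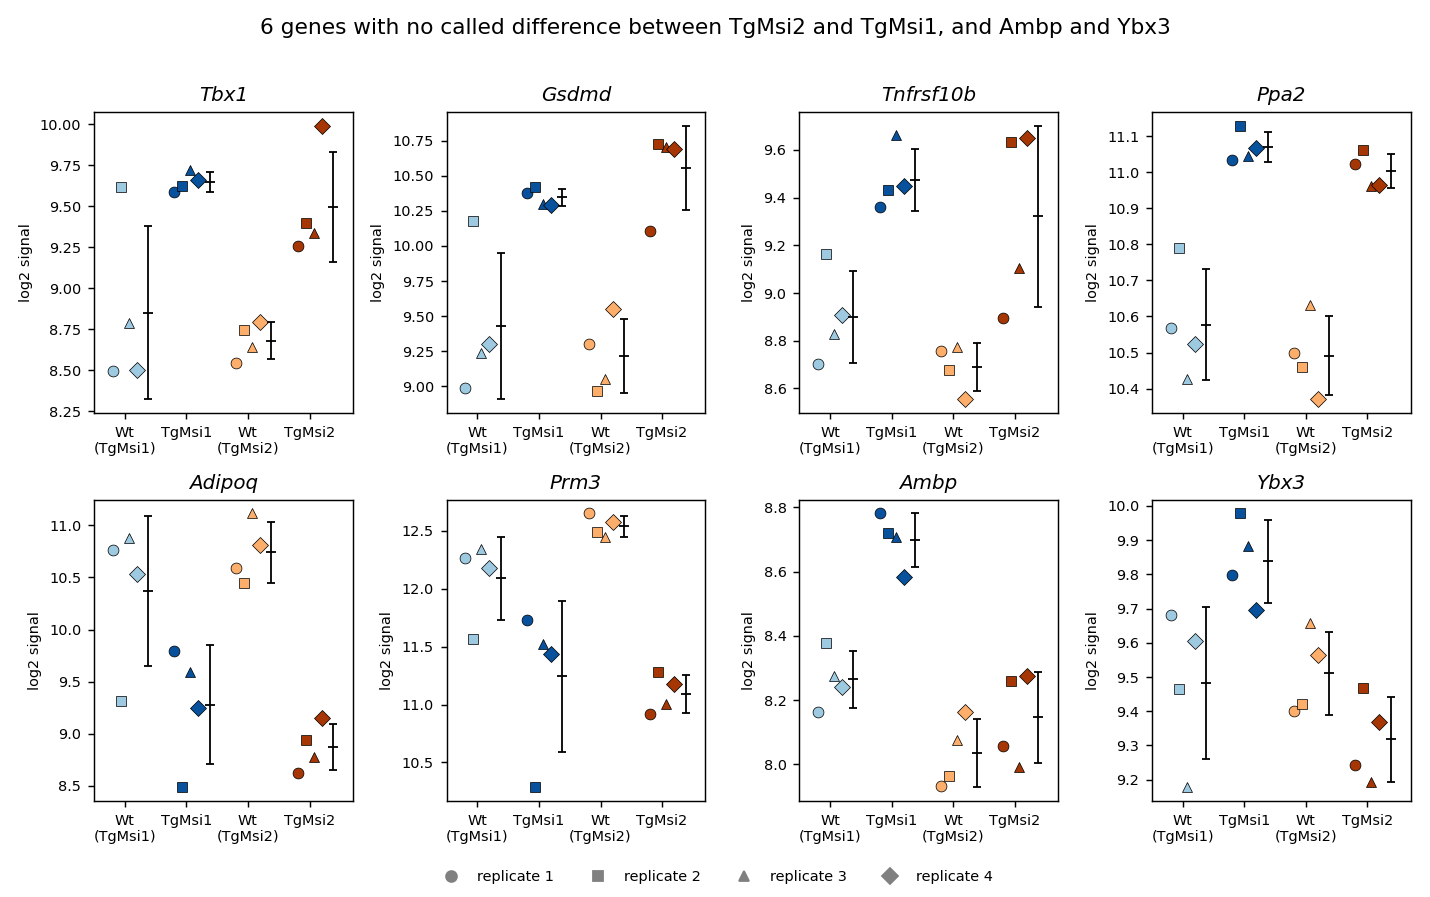
Log2 signal on each array (vertical axis) in the 4 groups (horizontal axis), with symbols for the replicate number and bars for mean and SD of 4 arrays. Tbx1, Gsdmd, Tnfrsf10b, Ppa2, Adipoq and Prm3 had no called difference between TgMsi2 and TgMsi1. The square of Wt(TgMsi1), replicate 2, lies with the transgenic arrays in Tbx1, Gsdmd and Adipoq. In Ambp the TgMsi1 arrays are the highest group, and in Ybx3 they lie above all TgMsi2 arrays.

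Cell type and pathway lists could be read only through their named members, which are few and were named because they changed with a transgene. The counts below therefore describe those members, and nothing is read from them about whole lists. The median transgenic difference was -0.003 over all probes and 0.059 over the 932 named probes. Of 31 endothelial, matrix and fibrosis genes on the array, 12 have a named probe. Of these, 7 were called higher in TgMsi2 and 0 lower, with a median of 0.82, where 1.91% of all probes and 15.1% of the named probes were called higher. Besides Timp1, Robo4 and Sparc they were the matrix protein Mgp (1.00), the transglutaminase Tgm2 (0.97), the proteoglycan Dcn (0.83), all 3 named as called members after their values were seen, and the intermediate filament Vim (0.78). Their wild-type differences were 0.16, -0.23, 0.16 and 0.19. The count of 7 fell to 4 without TgMsi2 replicate 1 or 3 or TgMsi1 replicate 1 or 4, to 5 without TgMsi1 replicate 3, to 1 from the 8 transgenic arrays alone and to 0 without TgMsi2 replicates 1 and 3 together. The mean signal of the 12 genes lay between 9.86 and 10.42 on the TgMsi1 arrays and between 10.69 and 11.29 on the TgMsi2 arrays, and on the wild-type arrays between 9.77 and 10.09. TgMsi1 replicate 2 was the highest TgMsi1 array and TgMsi2 replicates 1 and 3 were the highest TgMsi2 arrays, the same arrays that stand apart on the principal component.

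Of 33 macrophage, antigen presentation and immune genes on the array, 8 are named and 3 were called higher, Cd74, Laptm5 and Fcer1g. Over all probes 1.91% were called higher, and over the named probes 15.1%. The median was 0.87, and the mean signal of the 8 genes lay between 9.04 and 9.37 in TgMsi1 and between 9.92 and 10.14 in TgMsi2. Here the 4 TgMsi2 arrays were close to each other, with replicate 2 the highest. With 1 array left out the count of 3 ran from 1 (without TgMsi1 replicate 4) to 5 (without Wt(TgMsi1) replicate 2). It was 0 without TgMsi2 replicates 1 and 3 together. Fcer1g differed by 0.89 between the transgenic groups and by 0.78 between the wild types. Of 22 acute phase and complement genes 7 are named, 4 were called higher (Lrg1, Serpina3n, Lcn2 at 1.00 and the complement inhibitor Serping1 at 0.80, named after its value was seen) and 1 lower (Ambp). Lcn2, a siderophore-binding lipocalin, stood at 12.92 to 13.57 in TgMsi1 and at 14.20 to 14.32 in TgMsi2, near the highest value on any array, 14.51, so its difference may be understated. The wild types differed by -0.47 in Lcn2 and by -0.15 in Serping1. The call of each of these 4 higher genes was lost without TgMsi1 replicate 1, 3 or 4 or TgMsi2 replicate 1 or 3. Lcn2 was lost without other arrays as well and was called in 5 of 16 fits, against 11 for Lrg1 and Serpina3n.

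Of the testicular somatic cell types, 6 of 23 Sertoli genes, 8 of 23 Leydig and steroidogenesis genes and 5 of 16 myoid and contractile genes are named. All 19 had higher means in TgMsi2, as had 53.4% of the named probes, and 4 were called, all of them higher (21.1%). Over the named probes 15.1% were called higher, and over all probes 1.91%. The 19 are genes, called by any of their probes, while these shares count single probes, and the gap was not tested. Rhox5, a homeobox gene of Sertoli cells, stood at 10.63, 10.70, 10.72 and 10.52 in TgMsi1 and at 11.46, 11.41, 11.52 and 10.90 in TgMsi2, a difference of 0.68 (SE 0.13, limma adjusted p = 0.0156) against 0.01 in the wild types, called in 13 of 16 fits. Aard, another Sertoli gene, differed by 0.58 (limma adjusted p = 0.0458) against 0.17, and was called in 3 of 16 fits. In the Leydig list only Lcn2 was called, which is also an acute phase gene and is not specific to Leydig cells. The Leydig hormone Insl3 (0.64), the side-chain cleavage enzyme Cyp11a1 (0.72) and the adhesion molecule Vcam1 (0.71) did not pass (limma adjusted p 0.0767 to 0.158). In the myoid list myosin light chain kinase, Mylk, was called (0.63, limma adjusted p = 0.0336, in 11 of 16 fits) and smooth muscle actin, Acta2, was not (0.49, limma adjusted p = 0.112). Without TgMsi2 replicate 1 or 3 or TgMsi1 replicate 4 no member of these 3 lists was called.

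**Figure D5:**
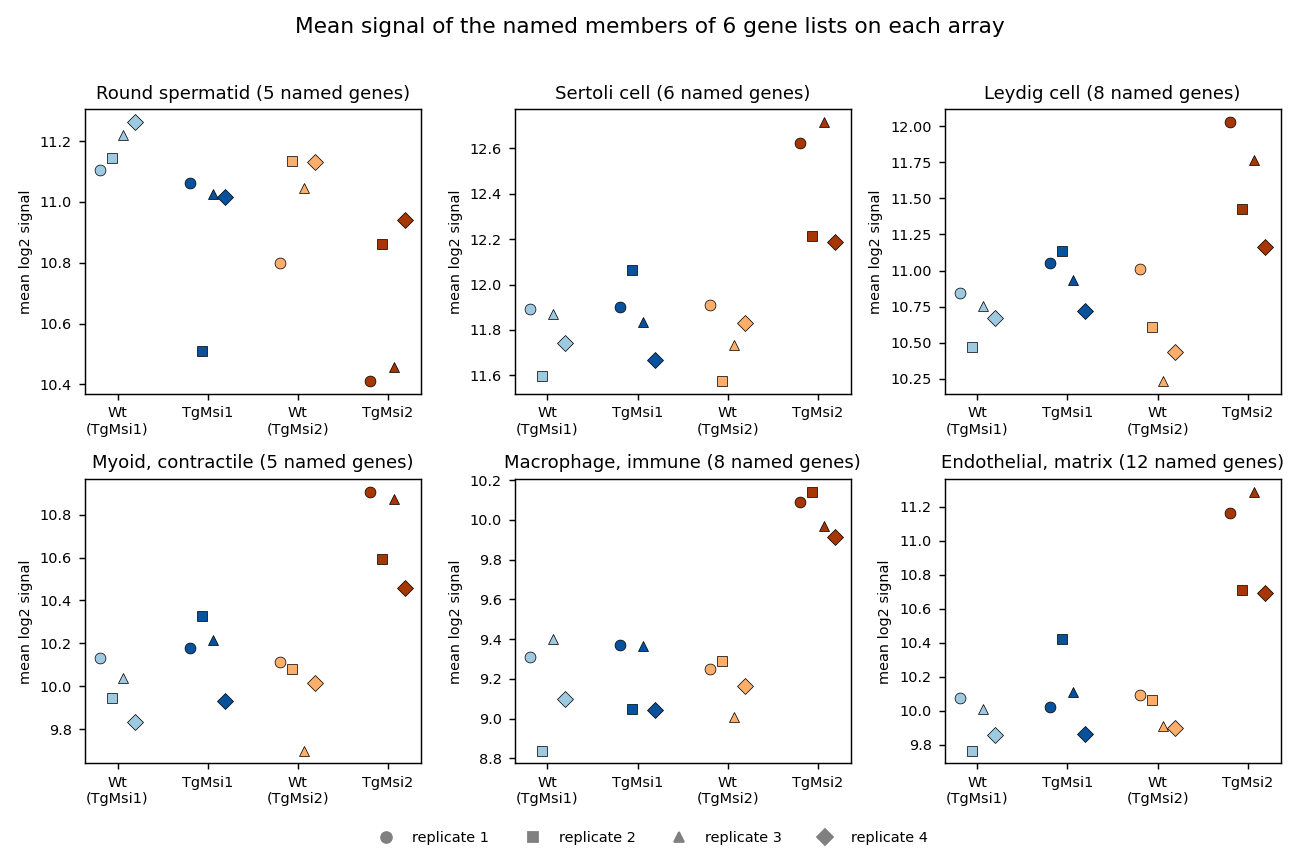
Mean log2 signal of the named members of 6 gene lists on each array (vertical axis), in the 4 groups (horizontal axis). Symbols mark the replicate number. In the 5 somatic and immune lists the TgMsi2 arrays are the highest, with replicates 1 and 3 above 2 and 4 except in the immune list. In the round spermatid list, which includes Klk1b24, TgMsi2 replicates 1 and 3 and TgMsi1 replicate 2 are the lowest arrays.

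Germ cell lists had few named members. Over all probes 1.91% were called higher and 1.29% lower, and over the named probes 15.1% and 7.94%. Of 26 round spermatid genes 5 are named, and Crem, a transcription factor of spermiogenesis, was called lower in TgMsi2 by 0.43 (value -0.43, SE 0.11, limma adjusted p = 0.0447). Its log2 signals were 10.05, 9.82, 9.95 and 10.10 in TgMsi1 and 9.45, 9.85, 9.28 and 9.65 in TgMsi2, so the groups overlap. The wild types differed by 0.14, and Crem was called in 5 of 16 fits. The sperm hyaluronidase Spam1 (-0.37) and the sperm calcium channel subunit Catsper4 (-0.52) did not pass. Klk1b24, of a kallikrein family with many similar copies, ran the other way by 0.48 (limma adjusted p = 0.473), with a wild-type difference of -1.03 and a TgMsi2 effect of 1.15. It was the only 1 of the 5 with a higher mean in TgMsi2. Whether it marks spermatids was not checked, so its place in this list is uncertain. The mean of the 5 named round spermatid genes was 10.51 on TgMsi1 replicate 2 and 11.02 to 11.06 on the other TgMsi1 arrays, and 10.41 and 10.46 on TgMsi2 replicates 1 and 3 against 10.86 and 10.94 on replicates 2 and 4. The arrays with the lowest mean of these 5 genes, Klk1b24 included, were thus TgMsi2 replicates 1 and 3 and TgMsi1 replicate 2. TgMsi2 replicates 1 and 3 also had the highest mean of the named Sertoli and matrix genes. The part of this in the differences above was not tested. Of 24 spermatocyte genes 2 are named (Ccna1 and Aurkc) and of 22 elongating spermatid genes 2 (Prm3 and Gapdhs), and 0 of these were called. Of 16 spermatogonia genes and 6 blood genes on the array 0 are named.

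Among the other lists, the small heat shock protein Hspb1 was higher in TgMsi2 by 0.88 (SE 0.12, limma adjusted p = 0.00396), and Xbp1, a transcription factor of the unfolded protein response, by 0.51 (limma adjusted p = 0.0309). The Hspb1 log2 signals were 9.72, 9.89, 9.50 and 9.46 in TgMsi1 and 10.65, 10.47, 10.77 and 10.20 in TgMsi2. Hspb1 was called in all 16 fits with 1 array left out and Xbp1 in 11, and their wild types differed by 0.12 and -0.05. The adiponectin receptors Adipor2 (0.62, limma adjusted p = 0.0216) and Adipor1 (0.44, limma adjusted p = 0.0336), which many tissues express, were higher, each in 11 of 16 fits, while Adipoq itself was not called. Of 3 named epididymis genes the protease inhibitors Eppin (0.71) and Wfdc10 (0.92) were called higher and the defensin Defb21 (-0.69) lower. These few members stand beside 1.91% of all probes called higher and 1.29% lower. Over the named probes the shares were 15.1% and 7.94%. Eppin and Wfdc10 were each called in 13 of 16 fits and Defb21 in 7. Eppin is also a Sertoli gene. Of 4 named cholesterol genes the sterol isomerase Ebp (0.60, limma adjusted p = 0.0435) was called, though in 4 of 16 fits, and Soat1, Msmo1 and Hsd17b7 were not. Of the cell cycle genes Fancd2, a Fanconi anaemia gene, was called lower (-0.32, limma adjusted p = 0.0185, in 12 of 16 fits) and Cdc20 was not (-0.29, limma adjusted p = 0.105). The 2 named ribosomal protein genes Rps4x (0.62) and Rpl39 (0.52), the 4 named oxidative phosphorylation genes, the histone gene H1f2 (0.63) and the reported Musashi targets Tbx1, Tnfrsf10b and Mbnl1 (0.36) had 0 calls in limma.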

How the data were processed

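RNA of whole testis was measured on 16 Illumina bead arrays (4 groups of 4, grouped by sample title). The authors deposited log2 values of 25697 probes. GenomeStudio, without a version, is in the submitters' processing notes. The normalization step is unstated; sorted arrays differed by at most 0.006, as quantile normalization leaves them. The authors' deposited tables for each transgene give p-values and ratios (fold) per probe, and served here for names only: 246 and 700 probes, 932 in all, of which 849 matched RefSeq (GRCm38.p6) by Entrez number and 144 symbols were updated. The 128 columns of unnormalized intensities could not be matched to samples and were not used; only that table's gene symbols served to count list members on the array.

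One limma fit (3.58.1, R 4.3.3) had 1 mean per group over 16 arrays, with no filter. P-values were adjusted by Benjamini-Hochberg over all 25697 probes and called under 0.05. The fit was tested on simulated data. Replicate numbers were not taken to pair the samples. In none of 4 pairs of groups did the deviations of all same-numbered arrays correlate above 0.1. Their r ran from -0.306 to 0.273 for TgMsi1 and TgMsi2, and from -0.036 to 0.126 for the wild types. It ran from 0.024 to 0.438 for TgMsi1 and its wild type, and from -0.292 to 0.337 for TgMsi2 and its wild type. For TgMsi1 and its wild type the median r was 0.23, against -0.086 for arrays of unlike number.

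Named genes were the 12 higher and 12 lower with the largest difference among called probes with groups that do not overlap, the 6 in each direction with the smallest adjusted p in the difference of the differences, and up to 4 members per list, 1 probe per gene, without predicted genes. A place for 6 genes also called in the wild types found none with a name. Of the genes that the rule took, 2 are not reported here. Genes outside the rule were named after their values were seen, as the text says where it gives them. The comparison, the 22 gene lists and the rule were chosen with earlier results of these data known.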

Additional observations from a re-analysis of the deposited data

Results flagged for a closer look

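Arrays far from the other 3 of their group were sought in 332 groups (83 genes in 4 groups each), and 14 were found (4.2%). Chance flags about 1 in 20 groups, so this is near what chance gives, and the genes share arrays. TgMsi1 replicate 2 stood apart in Robo4 (9.35, the others 7.96 to 8.17), Pcca (9.17, the others 9.79 to 9.92) and Msmo1 (10.90, the others 9.28 to 9.46), each time toward the TgMsi2 arrays. TgMsi2 replicate 1 stood apart in Defb14 (8.83, the others 9.40 to 9.48), Uhmk1 (7.87, the others 8.08 to 8.09) and Gsdmd (10.10, the others 10.69 to 10.72). TgMsi2 replicate 2 did so in Aqp11 (8.86, the others 8.58 to 8.60) and Pcyt1a (11.25, the others 10.98, 10.99 and 11.0005), and TgMsi1 replicate 4 in Ube2k (13.10, the others 12.69 to 12.76) and Ndufa4 (11.17, the others 11.51 to 11.52).

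Among the wild types, Wt(TgMsi2) replicate 3 stood apart in Pcyt1a (10.49, the others 10.38), Wt(TgMsi1) replicate 1 in Msmo1 (9.61, the others 9.07 to 9.14), and Wt(TgMsi1) replicate 3 in Fcer1g (8.35, the others 7.52 to 7.64). The array labelled Wt(TgMsi1) replicate 2 stood apart in Klk1b24 (11.49, the others 10.82 to 10.90).

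The TgMsi2 effect differed from the TgMsi1 effect in the test of the difference itself for Tm9sf2 (-0.64) and the unnamed probe ILMN_1377919 (0.44). Both had a limma adjusted p of 0.0426. Neither passed without TgMsi1 replicate 1 or 4 or Wt(TgMsi2) replicate 2, 3 or 4.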

How the results depend on the processing

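The number of probes called between TgMsi2 and TgMsi1, 823 in limma, ran from 140 to 1527 with 1 array left out. It was 1338 of 10831 probes with a mean log2 above 8, 1824 with array weights, 215 with a fold over 1.5 added, 157 from the 8 transgenic arrays alone, 24 without TgMsi2 replicates 1 and 3, and 141 without these and TgMsi1 replicate 2. The wild-type count of 11 ran from 6 to 30 with 1 array left out (10 without the array labelled Wt(TgMsi1) replicate 2), and was 5 with a fold over 1.5, 52 with an intensity trend and robust variance, 29 on linear values plus 50, 1 from the 8 wild-type arrays alone and 21 without TgMsi2 replicates 1 and 3. The difference of the differences, 2 probes, ran from 0 to 107, with 107 without TgMsi1 replicate 2. It was 0 without TgMsi1 replicate 1 or 4 or Wt(TgMsi2) replicate 2, 3 or 4, where limma gave 2262 to 2624 probes at an unadjusted p under 0.05. It was 1 with a fold over 1.5, 12 with an intensity trend and robust variance, 11 on linear values plus 50, 1 without TgMsi2 replicates 1 and 3, and 22 without these and TgMsi1 replicate 2. With the replicate number as a block, the counts were 1085, 16 and 13. Same-numbered arrays of TgMsi1 and its wild type correlated in their deviations with a median r of 0.23, against -0.086 for unlike numbers. In the other pairs of groups the same-number median ran from -0.063 to 0.0505. What the replicate numbers stand for is not stated. Of 83 named genes 49 were called. Of these, 22 were called in all 16 fits with 1 array left out and 21 in the fit of the 8 transgenic arrays alone. Without TgMsi2 replicates 1 and 3, 6 were called: Tnfrsf12a, Ddr1, Htra1, Pcyt1a, Hoxc9 and Tm9sf2. No called gene changed sign in any setting run. Among genes not called, Gapdhs ran from -0.0174 (without TgMsi1 replicate 2) to 0.0973 (without TgMsi2 replicate 1) and Prm3 from -0.4699 (without TgMsi1 replicate 2) to 0.0126 (without TgMsi1 replicate 1). Without TgMsi2 replicates 1 and 3, Tnfrsf10b turned to 0.17, Tbx1 to 0.0474 and Hsd17b7 to -0.0832, and with TgMsi1 replicate 2 out as well, Tnfrsf10b to 0.15 and Tbx1 to 0.0386. The cause was not tested. Omitting arrays leaves fewer samples, and the array number limits what small differences can show. Dim probes may have understated differences, since the lowest value is 7.37.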
